A study of Mus musculus with 6 samples.

Results

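The AP-1 transcription factor genes Fos, Fosb, Fosl1, Fosl2, Jun, Junb, Jund and Atf3 were examined in MLE12 cells, a lung epithelial line of mouse origin that grows without limit. The 8 genes were taken by symbol from a table of 46078 genes, and all 8 had a mean of at least 1 count per 1000000 scaled reads (CPM), as did 12078 genes in all. Messenger RNA libraries had been made from monolayers of 6 cultures, 1 per group. A Lingo1 KO, a Lingo2 KO, a Lingo3 KO and a TROY KO line and the wild-type parental line were each collected 24 hours after a scratch with a pipet tip, and the parental line was also collected without a scratch. All 6 cultures share the MLE12 background. LINGO1 and TROY are cell surface proteins best known as parts of the Nogo receptor complex on neurons, and LINGO2 and LINGO3 belong to the family of LINGO1. The sources used here do not say how the knockouts were made or whether a line descends from 1 cell. The 4 KO lines are different genotypes and not replicates of each other.

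AP-1 is a family of dimers that bind DNA through a basic region and a leucine zipper. FOS proteins need a partner, usually a JUN protein, whereas JUN proteins can also pair with each other, and ATF3 pairs with JUN proteins or with itself. Several of these genes are immediate early genes: growth factors, wounding and stress switch on their transcription within minutes through MAP kinases, and their short-lived messages are then cleared. In epithelia, AP-1 is known for its part in migration, proliferation and matrix turnover at wound edges.

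Between 28109825 and 30776294 reads were counted in genes per library. Lingo1 had 1579, 1469, 1564 and 1044 counts in the Lingo1, Lingo2, Lingo3 and TROY KO libraries, against 744 in the scratched and 791 in the unscratched parental library, so its message was not lower in its own knockout. Lingo2 had 0 counts in every library, Lingo3 had 1 count in all, and Tnfrsf19, which encodes TROY, had 0 to 4 counts per library, so messages could not serve as a check on these 3 knockouts. Each KO library is therefore named as it was labelled, and none of the 4 knockouts was checked by these counts. Of 10 markers of alveolar type II cells, 6 had a mean of at least 1 CPM, among them Sftpb and Sftpc, while Sftpd had 0 counts in every library. With 1 library per group there was no replicate error, and no p-value was computed. Intervals cover counting error only.

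The promoters of Fos, Fosb, Junb and Atf3, the genes more than 2-fold higher in several KO lines, are shown so that their sequences can be set beside their levels. RefSeq promoter entries on GRCm38.p6 were found for 7 of the 8 genes, all but Fosl1. Each sequence runs 5' to 3' on the gene's own strand over the 250 bases before the annotated start. Capitals mark TGACG on either strand, the core of the cAMP response element (CRE), and TATAAA, the TATA box.
Fos: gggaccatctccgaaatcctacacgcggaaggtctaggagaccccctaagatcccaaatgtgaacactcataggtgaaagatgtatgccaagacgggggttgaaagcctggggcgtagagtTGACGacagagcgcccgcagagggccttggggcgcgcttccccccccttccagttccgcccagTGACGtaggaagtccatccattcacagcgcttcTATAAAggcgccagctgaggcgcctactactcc
Fosb: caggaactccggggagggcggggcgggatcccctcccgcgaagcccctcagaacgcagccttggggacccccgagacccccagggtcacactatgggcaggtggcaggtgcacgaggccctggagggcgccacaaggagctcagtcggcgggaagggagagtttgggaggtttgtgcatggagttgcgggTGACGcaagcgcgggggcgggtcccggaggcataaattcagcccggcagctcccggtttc
Junb: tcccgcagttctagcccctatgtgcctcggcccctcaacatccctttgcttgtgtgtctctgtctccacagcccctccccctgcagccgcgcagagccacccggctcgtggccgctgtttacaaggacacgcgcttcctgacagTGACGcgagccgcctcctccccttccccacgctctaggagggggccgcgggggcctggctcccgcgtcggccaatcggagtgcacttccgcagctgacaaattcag
Atf3: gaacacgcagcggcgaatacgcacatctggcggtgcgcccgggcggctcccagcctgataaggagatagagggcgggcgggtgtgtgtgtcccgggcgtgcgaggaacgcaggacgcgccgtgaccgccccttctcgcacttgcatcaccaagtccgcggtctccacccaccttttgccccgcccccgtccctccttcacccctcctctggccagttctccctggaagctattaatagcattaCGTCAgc

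The Fos window lies at chr12:85473640-85473889 on the plus strand. It holds TGACG beginning 129 and 66 bases before the start, and TATAAA beginning 33 bases before it. On the minus strand lie the windows of Fosb at chr7:19310046-19310295, of Junb at chr8:84978749-84978998 and of Atf3 at chr1:191183334-191183583. TGACG begins 60 bases before the Fosb start and 106 bases before the Junb start. In the Atf3 window it is read on the opposite strand, 7 bases before the start. Fosl2, Jun and Jund had no TGACG in their windows. Of 32851 promoters of the same length, 17.8% held it on either strand. The motifs were chosen with the promoters and the levels in view, and a match describes letters only. The Jun window holds tgacatca, a match to TGACNTCA, beginning 45 bases before its start, and 7.49% of all promoters hold such a match. The full CRE, TGACGTCA, was in none of the 7 windows and in 1.55% of all promoters. Neither TGANTCA, the AP-1 site itself (6.75% of promoters), nor the CArG box bound by SRF (1.47%) was found in these windows, which says nothing of sequence outside them. CCAAT lay in the Jun and Junb windows and in 33.9% of all promoters, and TATAAA in 12.4%. The RefSeq start used for Atf3 lies 34706 bases downstream of the GENCODE start of the gene, that for Fosl2 671 bases downstream and that for Jund upstream, at position -1210 from it. The Atf3, Fosl2 and Jund windows therefore do not adjoin the GENCODE start of the counted gene, and the Atf3 window lies inside the gene's span. Counts per gene do not show which start was used.

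The first question was how AP-1 transcripts stood in the knockout lines after wounding, against the wounded parental line. Fosb, Fos and Atf3 were higher in all 4 KO lines and Junb in 3 of them, Fosl1 passed in the Lingo3 KO line, and Fosl2, Jun and Jund passed in none. Folds ran from 1.15 for Fosl2 in the Lingo2 KO line to 12.5 for Fosb in the TROY KO line. A gene passed the size rule, and is called higher or lower, when its fold between libraries was at least 2 and the bound of its 95% counting interval nearest to 1 was beyond 1.5-fold. Of the 8 genes, 4 were higher in the Lingo1 KO line, where 1.95% of the 12078 genes were. In the Lingo2 KO line 3 were higher (2.12% of all genes), in the Lingo3 KO line 5 (4.63%) and in the TROY KO line 4 (1.06%). None was lower, where 1.67%, 1.38%, 2.56% and 1.18% of all genes were in the Lingo1, Lingo2, Lingo3 and TROY KO lines. The median log2 fold of the 8 genes was 0.88, 0.79, 1.25 and 0.91 in the Lingo1, Lingo2, Lingo3 and TROY KO lines, against 0.01, 0.02, 0.01 and 0.02 over all genes tested. These comparisons share 1 parental library.

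**Figure D1:**
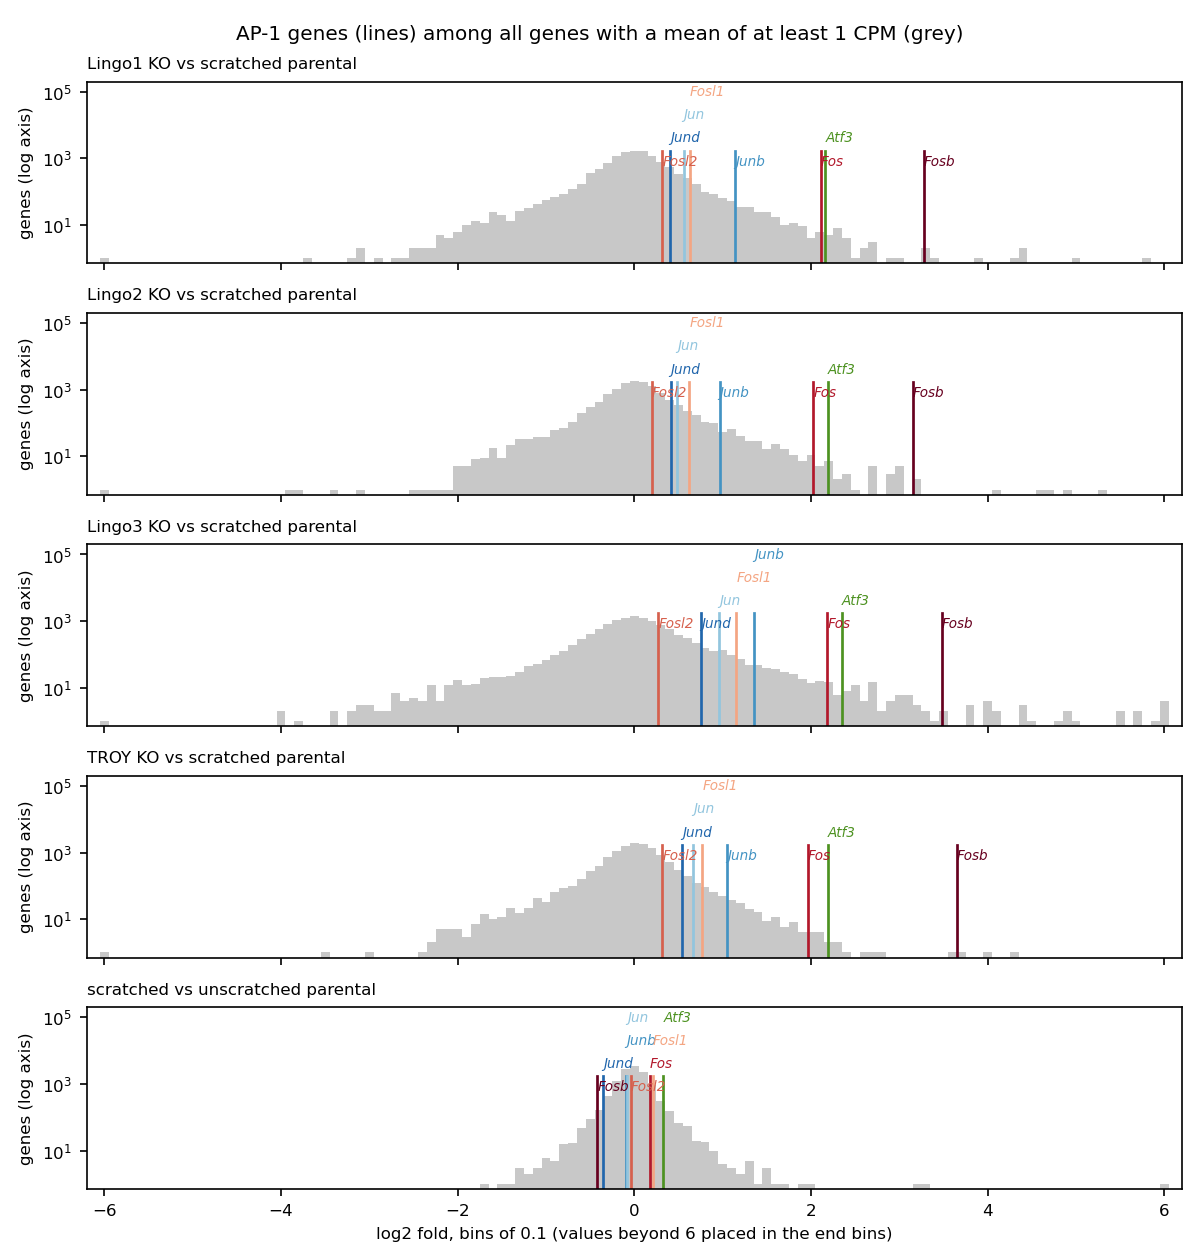
Log2 fold of each AP-1 gene (coloured lines) over the number of genes per 0.1 bin of log2 fold (grey, log axis), for each KO library and then the scratched parental library against its control. Fosb, Fos and Atf3 lie in the sparse right tail of all 4 KO panels, while in the narrower bottom panel all 8 genes lie between -0.42 and 0.33. There, 3.39% of genes had a higher fold than Atf3, 98.1% a higher one than Fosb and 97.0% than Jund.

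Fos encodes the founding member of the FOS proteins (ENSMUSG00000021250, chromosome 12, 85473890 to 85477273, GRCm38). It stood at 208, 196, 218 and 188 CPM in the Lingo1, Lingo2, Lingo3 and TROY KO libraries, against 48.0 CPM in the scratched and 42.4 CPM in the unscratched parental library. All 4 KO libraries were far above both parental libraries and close to each other. Against the scratched parental library, Fos was 4.33-fold higher in the Lingo1 KO line (95% interval 4.09 to 4.59), 4.08-fold in the Lingo2 KO line (3.85 to 4.32), 4.55-fold in the Lingo3 KO line (4.30 to 4.82) and 3.91-fold in the TROY KO line (3.69 to 4.14). Between neighbours in the order of levels, Lingo3, Lingo1, Lingo2 and TROY KO, the ratios were only 1.04 to 1.06, yet each interval lay above 1. These small steps exceed counting error with the scaling used here, and the spread between cultures was not measured. They also depend on the scaling: with DESeq2 size factors the Lingo2 and TROY KO folds were 4.03 and 3.90.

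Fosb makes a close relative of FOS (ENSMUSG00000003545, chromosome 7, 19302696 to 19310051). Its levels were 8.59, 7.89, 9.91 and 11.1 CPM in the Lingo1, Lingo2, Lingo3 and TROY KO libraries, against 0.888 CPM in the scratched and 1.19 CPM in the unscratched parental library. The parental values rest on 27 and 34 counts, so Fosb was nearly off in both and its folds have wide intervals. It was 9.68-fold higher in the Lingo1 KO line (6.49 to 15.0), 8.89-fold in the Lingo2 KO line (5.95 to 13.8), 11.2-fold in the Lingo3 KO line (7.52 to 17.2) and 12.5-fold in the TROY KO line (8.47 to 19.3). Fosb had the largest fold of the 8 genes in every KO line, and ranked 4th of 12078 genes by fold in the TROY KO line, 7th in Lingo2, 9th in Lingo1 and 28th in Lingo3. No neighbouring KO libraries differed in Fosb beyond counting error. Across the order as a whole, the TROY KO library had 1.41 times the level of the Lingo2 KO library (1.19 to 1.68), short of the size rule.

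Atf3 encodes a stress-induced ATF protein that often represses transcription (ENSMUSG00000026628, chromosome 1, 191170296 to 191218039). It reached 45.5, 46.4, 51.8 and 46.5 CPM in the Lingo1, Lingo2, Lingo3 and TROY KO libraries, against 10.2 CPM in the scratched and 8.10 CPM in the unscratched parental library. The KO libraries formed a narrow band, with the Lingo3 KO library at the top. Atf3 was 4.48-fold higher in the Lingo1 KO line (3.95 to 5.09), 4.56-fold in the Lingo2 KO line (4.03 to 5.18), 5.10-fold in the Lingo3 KO line (4.51 to 5.78) and 4.57-fold in the TROY KO line (4.04 to 5.19). The Lingo1, Lingo2 and TROY KO libraries were within counting error of each other as neighbours. Fos, Fosb and Atf3 were also the 3 genes of the family that passed in every KO line against the unscratched parental library, as 0.53% of the 12078 genes did against both parental libraries and 0.729% against the scratched library.

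**Figure D2:**
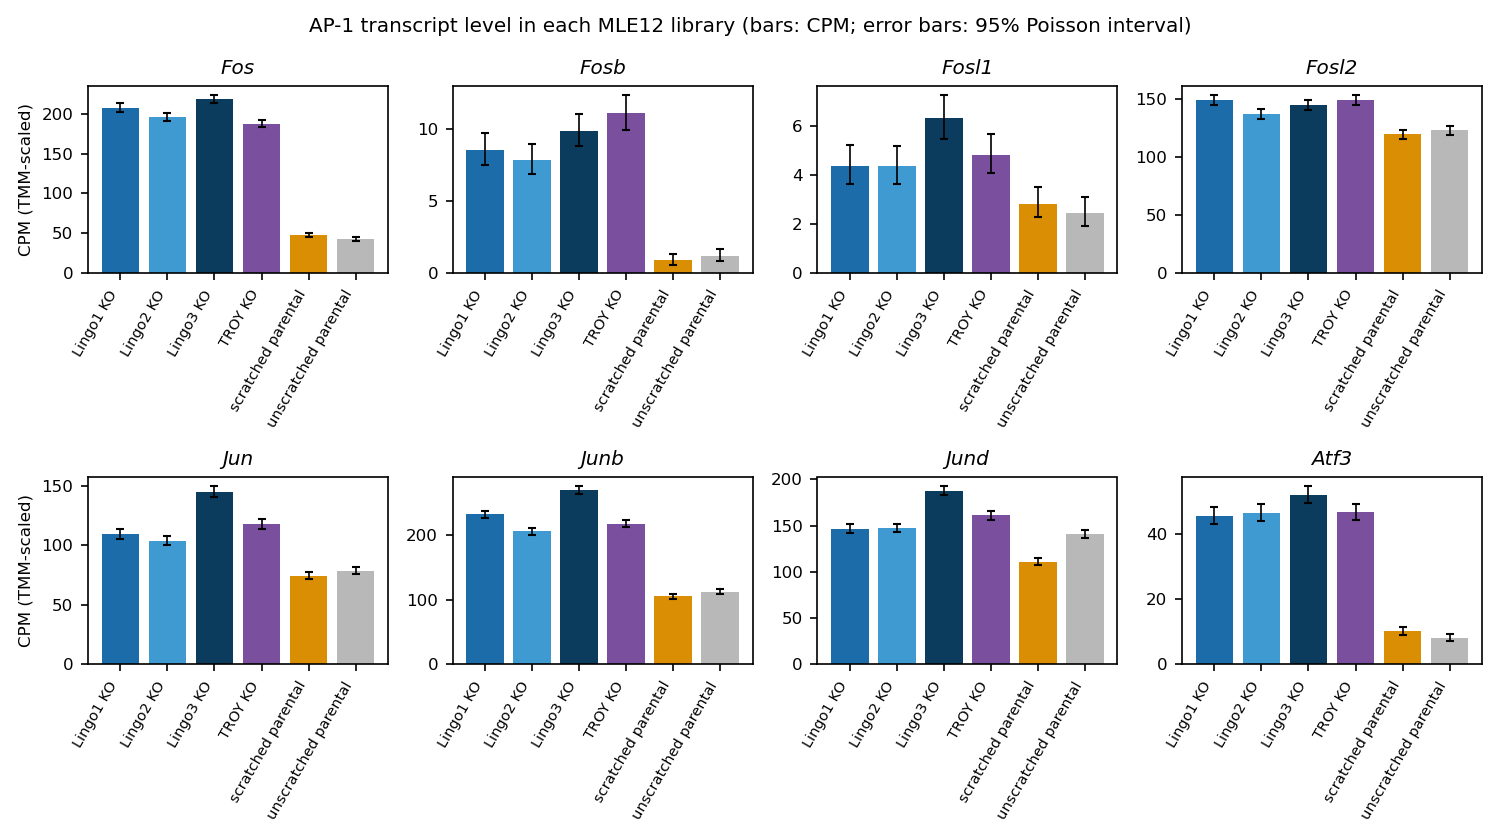
Level of each AP-1 gene in CPM, with TMM-scaled library sizes, in the 6 libraries. Bars are single libraries and error bars their 95% Poisson intervals. For Fos, Fosb and Atf3 the 4 KO bars stand far above both parental bars, whereas for Fosl2 the bars differ little.

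The JUN genes shifted less. Junb, whose product can activate or restrain AP-1 targets depending on its partner (ENSMUSG00000052837, chromosome 8, 84974484 to 84978718), stood at 231, 205, 268 and 217 CPM in the Lingo1, Lingo2, Lingo3 and TROY KO libraries, against 105 CPM in the scratched and 112 CPM in the unscratched parental library. The KO and parental levels did not overlap. Junb was 2.20-fold higher in the Lingo1 KO line (2.11 to 2.30), 2.55-fold in the Lingo3 KO line (2.45 to 2.66) and 2.07-fold in the TROY KO line (1.98 to 2.16), and had a fold of 1.95 in the Lingo2 KO line (1.87 to 2.04), just short of the rule. In the TROY KO line the call rested on the settings, with a fold of 1.96 when total counts were the scaling and 1.93 against the unscratched library.

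Jun encodes the archetypal partner of FOS (ENSMUSG00000052684, chromosome 4, 95049034 to 95052222). It had 109, 104, 145 and 118 CPM in the Lingo1, Lingo2, Lingo3 and TROY KO libraries, against 74.4 CPM in the scratched and 78.8 CPM in the unscratched parental library. The Lingo3 KO library stood above the other 3. Its fold there was 1.95 (1.85 to 2.05), against 1.47, 1.40 and 1.58 in the Lingo1, Lingo2 and TROY KO lines, and none passed. Jund, the most constitutive JUN gene in many tissues (ENSMUSG00000071076, chromosome 8, 70698949 to 70700616), had 147, 147, 187 and 161 CPM in the Lingo1, Lingo2, Lingo3 and TROY KO libraries, 111 CPM in the scratched and 141 CPM in the unscratched parental library. Here the choice of parental library mattered. The Lingo1 KO fold was 1.32 (1.26 to 1.39) against the scratched library but 1.04 (0.994 to 1.09) against the unscratched library. The Lingo2 KO fold was 1.33 (1.27 to 1.39) against the scratched and 1.04 (0.999 to 1.09) against the unscratched library.

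The Fos-like genes Fosl1 and Fosl2 encode FRA1 and FRA2, which lack the strong activation domain of FOS. Fosl1 (ENSMUSG00000024912, chromosome 19, 5447547 to 5455946) was low, at 4.37, 4.35, 6.30 and 4.82 CPM in the Lingo1, Lingo2, Lingo3 and TROY KO libraries, against 2.83 CPM in the scratched and 2.44 CPM in the unscratched parental library. The KO libraries lay above both parental libraries, and Lingo3 above the rest. Fosl1 was 2.23-fold higher in the Lingo3 KO line (1.72 to 2.91), with folds of 1.54, 1.54 and 1.70 in the Lingo1, Lingo2 and TROY KO lines. Fosl2 (ENSMUSG00000029135, chromosome 5, 32135801 to 32157842) was abundant and nearly level, at 149, 137, 145 and 149 CPM in the Lingo1, Lingo2, Lingo3 and TROY KO libraries, 120 CPM in the scratched and 123 CPM in the unscratched parental library. Its folds of 1.15 to 1.25 were the smallest of the family in all 4 KO lines.

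Opposite-strand genes overlap some members, and no label or header says whether the counting used strand. Ccdc85b covers 57.2% of the Fosl1 exon bases, Gm11175 52.6% of those of Jund, and Prdx2 7.52% of those of Junb, so the levels of Fosl1 and Jund are uncertain. Of 427 genes whose exons lie wholly under exons of the other strand, 27 had any count in the 6 libraries. Of all 46078 genes, 19206 to 20307 had a count in a single library. Whether reads in such overlaps went uncounted was not tested.

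**Figure D3:**
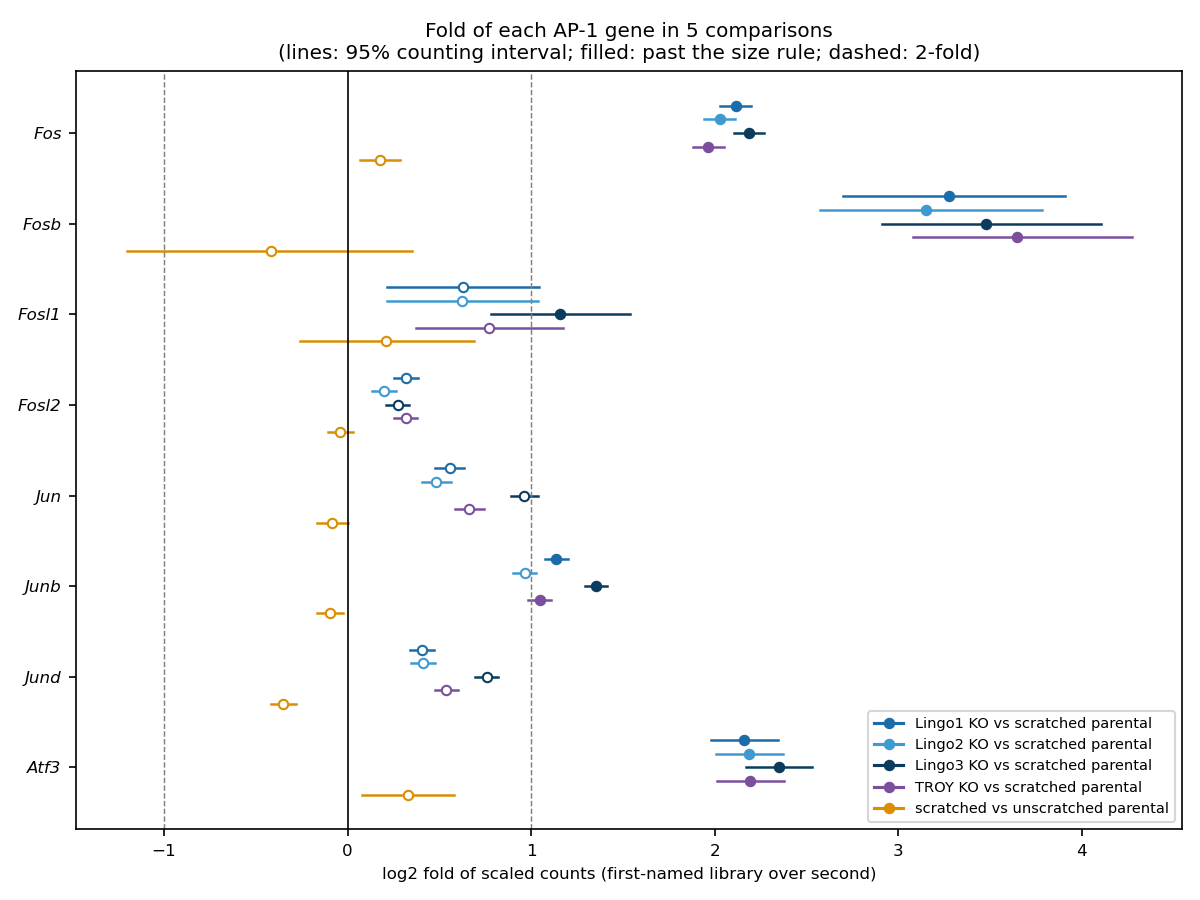
Log2 fold of each AP-1 gene in each KO library against the scratched parental library and in the scratched against the unscratched parental library. Lines are 95% counting intervals, filled points passed the size rule and dashed lines mark 2-fold. All 32 KO values lie right of 0, and 16 of them passed, where 1.06% to 4.63% of all genes were higher per KO line. Over all genes tested, the median log2 fold of the KO comparisons was 0.01 to 0.02.

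All 4 KO libraries exceeded both parental libraries in all 8 genes. Levels of all 4 KO libraries also lay above both parental libraries in 24.2% of the 12078 genes and below both in 21.9%, so a lack of overlap is by itself common in these data. Of the 32 counting intervals of a KO line against the scratched parental library, all 32 lay above 1. The share of all genes with such intervals was not counted, and the 32 values share 1 parental library. The lowest of these folds was 1.15 for Fosl2 in the Lingo2 KO line. On 3879 against 3643 counts, even this fold had an interval above 1 (1.095 to 1.199). That fold was exceeded by 25.9% of the 12078 genes, so an interval above 1 is a weak criterion here. Against the unscratched library the members past the rule numbered 4 in the Lingo1 KO line (1.8% of all genes), 3 in Lingo2 (1.84%), 5 in Lingo3 (4.31%) and 3 in TROY (1.24%), and the intervals of Jund in the Lingo1 and Lingo2 KO lines held 1.

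Scratching itself was asked about in the parental line, 24 hours after the wound. None of the 8 genes passed the size rule, where 0.0828% of all genes did in either direction. Fos had 48.0 CPM in the scratched and 42.4 CPM in the unscratched library, a fold of 1.13 (1.05 to 1.22), and Atf3 had 10.2 and 8.10 CPM, a fold of 1.25 (1.05 to 1.49). Jund had 111 CPM in the scratched and 141 CPM in the unscratched library, a fold of 0.78 (0.75 to 0.82), the clearest shift of the family here. Intervals held 1 for Fosb at 0.75 (0.43 to 1.28), Fosl1 at 1.16, Fosl2 at 0.97 and Jun at 0.94. A response that had come and gone before 24 hours would not be seen in these libraries, and the whole monolayer was collected in either case.

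Among the KO lines, none of the 48 member values over the 6 pairs of KO libraries passed the size rule, and the folds ran from 0.89 to 1.45. Counting intervals held 1 in 13 of the 48. The Lingo3 KO library was the highest of the 4 in 6 genes, Fos, Fosl1, Jun, Junb, Jund and Atf3. Over the Lingo1 KO library its fold was 1.33 for Jun (1.27 to 1.39), 1.28 for Jund (1.23 to 1.33) and 1.44 for Fosl1 (1.14 to 1.83). The TROY KO library was highest for Fosb and lowest for Fos. The Lingo2 KO library was lowest in 5 genes, Fosb, Fosl1, Fosl2, Jun and Junb. Over all genes, 1.65% passed in either direction between the Lingo3 and Lingo1 KO libraries, 1.61% between Lingo3 and Lingo2, and 2.61% between Lingo3 and TROY. The share was 0.215% between TROY and Lingo1, 0.364% between TROY and Lingo2 and 0.0166% between Lingo1 and Lingo2.

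Levels can be compared between genes only per length, and the RPKM values (reads per kilobase of gene, scaled to library size) of the authors' deposited table served for this. The 8 genes summed to 394, 370, 458 and 387 RPKM in the Lingo1, Lingo2, Lingo3 and TROY KO libraries, against 195 RPKM in the scratched and 213 RPKM in the unscratched parental library. The make-up changed along with the total, though opposite-strand overlap leaves Jund and Fosl1, and so the sum and its shares, uncertain. Fos made up 22.3% to 24.7% of the sum in the KO libraries, 11.6% in the scratched and 9.31% in the unscratched parental library. Atf3 made up 5.62% to 6.21% in the KO libraries, against 2.61% in the scratched and 1.89% in the unscratched parental library. The share of Jund was 22.0% to 24.5% in the KO libraries, against 33.9% in the scratched and 39.2% in the unscratched parental library, although its own level was not lower. Junb held a near-constant share, 30.1% to 32.0% in the KO libraries against 29.6% in the scratched and 28.7% in the unscratched parental library.

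In RPKM, Junb was the most abundant AP-1 message in the 4 KO libraries and Jund in both parental libraries. The levels of Jund and Fosl1 are uncertain because of opposite-strand overlap, as are ranks and sums that hold them. Fos ranked 2nd of 8 in the Lingo1 and Lingo2 KO libraries and 3rd in Lingo3 and TROY. In the scratched parental library it ranked 4th, at 22.6 RPKM beside Jun at 23.2 RPKM. Fosb was the least abundant in all libraries but that of TROY KO, where its 2.89 RPKM stood just above Fosl1 at 2.77 RPKM. The summed FOS genes stood at 0.431 to 0.506 of the summed JUN genes in the KO libraries, against 0.291 in the scratched and 0.238 in the unscratched parental library. These are ratios of messages, not of proteins. The lengths behind the RPKM values are those the authors used, and the values imply about 3838 bases for Fosb where the merged GENCODE exons span 6243.

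**Figure D4:**
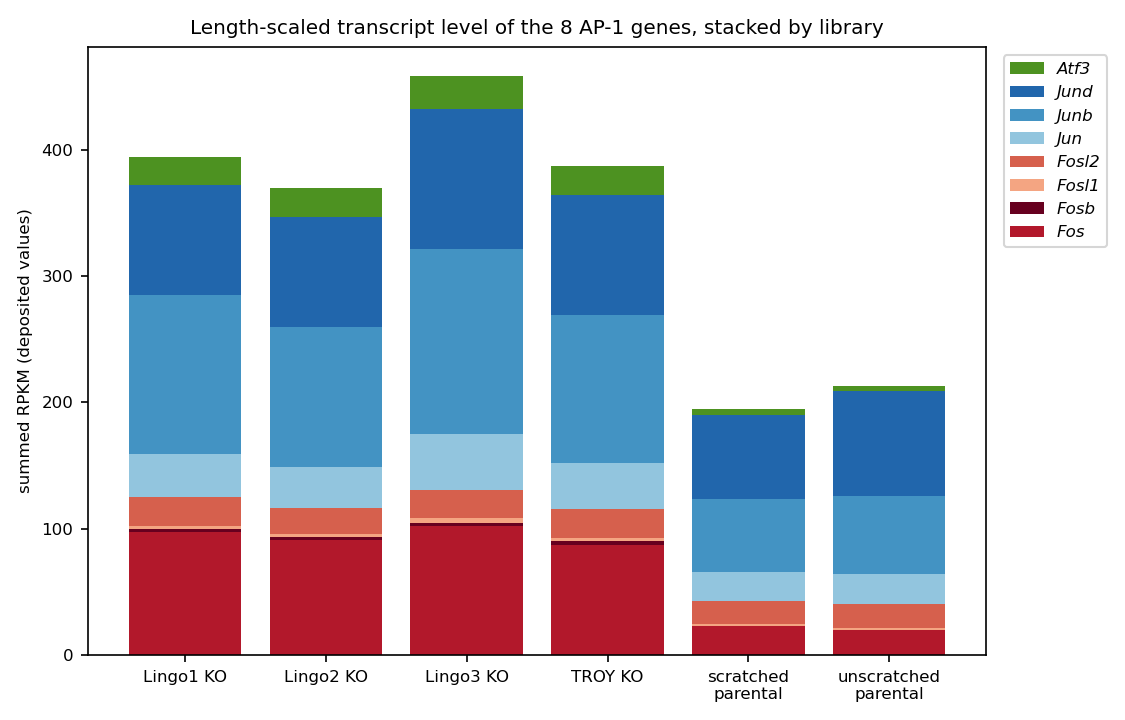
Stacked RPKM values from the authors' deposited table for the 8 AP-1 genes in each of the 6 libraries (red, FOS genes; blue, JUN genes; green, Atf3). The KO stacks reach 370 to 458 RPKM, above the parental stacks of 195 and 213 RPKM, and the Fos layer is 22.3% to 24.7% of a KO stack.

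The pattern of each gene over the 6 libraries was compared as log2(CPM + 0.5) centred on the gene's own mean, with the root mean square (RMS) difference as the measure of likeness. All 6 values share their libraries and scaling, so this is a description. Within the family, Fos and Atf3 were closest, with an RMS difference of 0.11 log2 units, and Fosb lay 0.28 from Atf3 and 0.33 from Fos. Jun lay 0.11 from Fosl1 and 0.15 from Jund, while Junb stood between, 0.18 from Fosl1 and 0.52 from Fos. Fosl2 lay 0.15 from Jund and 1.15 from Fosb.

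Among 11281 named genes outside predicted genes and pseudogenes, Atf3, Egr2 and the basal cell keratin gene Krt14 were nearest to Fos, at 0.11, 0.11 and 0.23. Egr2, an early response zinc finger gene, had 20.0, 15.7, 21.6 and 17.2 CPM in the Lingo1, Lingo2, Lingo3 and TROY KO libraries, against 3.75 CPM in the scratched and 3.04 CPM in the unscratched parental library. Atf3, Egr2 and the gastrokine gene Gkn2 were nearest to Fosb, and Fos, Egr2 and Gkn2 to Atf3. Junb had Sik1, a salt-inducible kinase gene, at 0.030, then Pcdh1 and Nhsl2. Sik1 stood at 134, 123, 166 and 128 CPM in the Lingo1, Lingo2, Lingo3 and TROY KO libraries, against 63.6 CPM in the scratched and 67.6 CPM in the unscratched parental library. Its KO libraries fell in the order Lingo3, Lingo1, TROY and Lingo2, as those of Junb did. The nearest genes to Jun were Tnfrsf21, Ldlrad3 and Rab11fip1, to Fosl1 Slc26a2, Iqgap2 and Zfp365, to Jund Rnf39, Cebpb and Foxj1, and to Fosl2 Hyou1, Ppp1r10 and Dnajc16. Genes of small range find near neighbours easily, and Fosl2 had an RMS of only 0.13 around its own mean, against 1.27 for Fosb. Rnf39 had only 35 to 68 counts per library and Foxj1 37 to 70, so counting error also limits those matches to Jund.

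**Figure D5:**
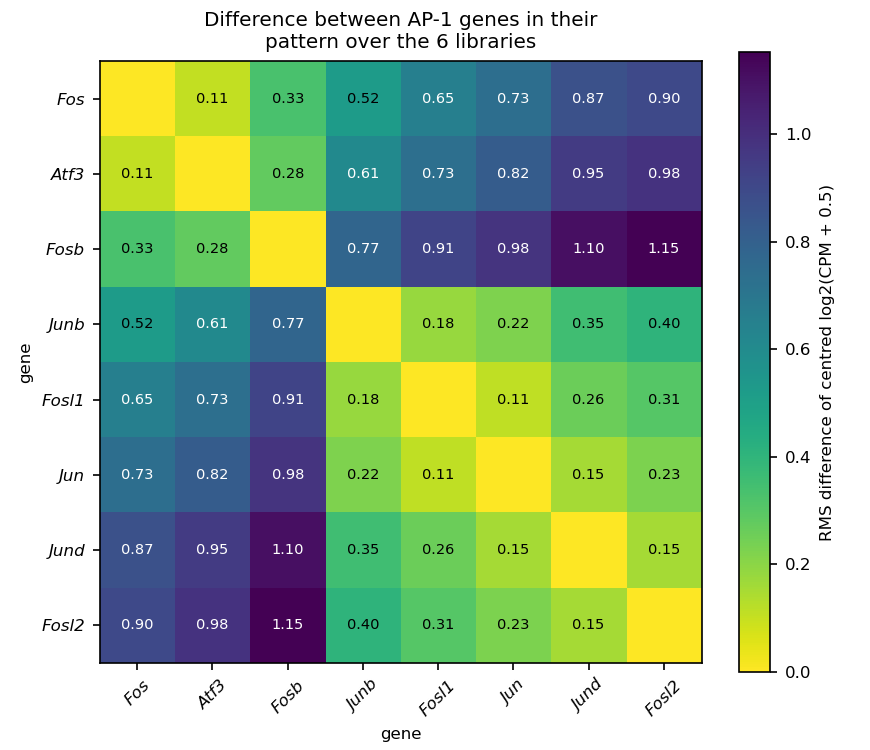
RMS difference of centred log2(CPM + 0.5) between each pair of AP-1 genes over the 6 libraries, with lighter squares for more alike patterns. Fos, Atf3 and Fosb form a light block at differences of 0.11 to 0.33, and the other 5 genes a second block at 0.11 to 0.40.

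Genes that work with AP-1 were counted by list against the scratched parental library, where 1.95%, 2.12%, 4.63% and 1.06% of all genes were higher in the Lingo1, Lingo2, Lingo3 and TROY KO lines. In the same order, 1.67%, 1.38%, 2.56% and 1.18% of all genes were lower. Of 15 measured bZIP partners, which include Batf3, Jdp2, the MAF genes and the CREB genes, none was higher or lower in any KO line, with list medians of -0.11 to 0.07 log2 units. None of 6 genes for SRF and its cofactors, the activators at the CArG box, passed in any KO line. Srf itself had folds of 1.09 to 1.27, below the 2-fold line, and is named after its values were seen. Of 18 MAP kinase pathway genes upstream of AP-1, Rps6ka4, which encodes the kinase MSK2, alone passed, 2.02-fold higher in the Lingo3 KO line (1.91 to 2.14), with folds of 1.85, 1.71 and 1.57 in the Lingo1, Lingo2 and TROY KO lines. Against the unscratched library none of the 18 passed in any KO line. These lists count messages and say nothing of phosphorylation.

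Of 12 measured genes for turnover of AP-1 messages and proteins, Zfp36 was higher in all 4 KO lines, as 0.729% of all genes were. It encodes tristetraprolin, which binds AU-rich elements and speeds decay of messages including that of Fos. Its folds were 3.19 (2.97 to 3.44), 3.21 (2.99 to 3.45), 3.32 (3.09 to 3.57) and 2.69 (2.50 to 2.90) in the Lingo1, Lingo2, Lingo3 and TROY KO lines. In the Lingo3 KO line, Zfp36l1 at 2.17-fold and Trib1, a pseudokinase that guides the COP1 ligase, at 2.02-fold were higher as well, and Zfp36l1 did not pass there against the unscratched library. No gene of this list was lower, where 1.18% to 2.56% of all genes were.

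Of 18 other early response genes, 16 were measured, and all 16 had folds above 1 in every KO line. The median log2 fold over all genes tested was 0.01 to 0.02 in these lines. Higher were 4 in the Lingo1 KO line (1.95% of all genes), 3 in Lingo2 (2.12%), 5 in Lingo3 (4.63%) and 3 in TROY (1.06%), with list medians of 0.69, 0.68, 0.69 and 0.61 log2 units. Egr2, Klf10 and Dusp1, a phosphatase that switches MAP kinases off, were among them in all 4. Dusp1 was 2.28-, 2.29-, 2.59- and 2.33-fold higher in the Lingo1, Lingo2, Lingo3 and TROY KO lines. Klf2, named after its values were seen, was 2.70-fold higher in the Lingo3 KO line (1.67 to 4.51) on 65 against 24 counts. The 24 counts of the scratched parental library lie below 1 CPM, so the filter itself favoured a higher call. Against the unscratched library Klf2 passed in the Lingo1 and Lingo2 KO lines as well. Egr1 was 2.13-fold higher in both the Lingo1 and Lingo3 KO lines and had a fold of 1.85 in the other 2. In the scratched against the unscratched parental library none of the 16 passed, with a median of -0.04.

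Of 15 measured genes described as AP-1 targets, 2 were higher in the Lingo1 KO line (1.95% of all genes), 2 in Lingo2 (2.12%), 3 in Lingo3 (4.63%) and 1 in TROY (1.06%). The list medians were 0.12 to 0.23 log2 units, and the 20 listed genes summed to 2289 to 2497 CPM in the KO and 1854 to 1858 CPM in the parental libraries. Spp1, which encodes osteopontin, was higher in all 4, at 4.25-, 5.74-, 16.1- and 4.04-fold in the Lingo1, Lingo2, Lingo3 and TROY KO lines, on 58, 80, 242 and 60 counts against 15 in the scratched parental library. Spp1 stood at 0.493 CPM in the scratched and 0.698 CPM in the unscratched parental library. It averaged 1 CPM only through the KO libraries, so the filter itself favoured a higher call. It was also the only target higher in the TROY KO line. The growth factor gene Hbegf was 2.21-fold higher in the Lingo1 and 2.07-fold in the Lingo2 KO line, and the hyaluronan receptor gene Cd44 2.31-fold in the Lingo3 KO line. Against the unscratched library Hbegf passed in no KO line and Cd44 passed in the Lingo2 and Lingo3 KO lines. The collagenase gene Mmp13, a classic AP-1 target, had 286 counts in the Lingo3 KO library against 794 in the scratched parental library, a fold of 0.36 (0.31 to 0.41), and was lower. Mmp3, Mmp9, Mmp10, Il6 and Il11 fell below 1 CPM on average and were not tested.

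Atf3 is also a gene of the integrated stress response. Of 11 such genes only Trib3 was higher against the scratched library, 2.10-fold in the Lingo2 (1.81 to 2.45) and 2.30-fold in the Lingo3 KO line (1.99 to 2.67). Over all genes, 1.95%, 2.12%, 4.63% and 1.06% were higher in the Lingo1, Lingo2, Lingo3 and TROY KO lines. Against the unscratched library Trib3 was higher in all 4 KO lines and Chac1, which encodes a glutathione-degrading enzyme and is named after its values were seen, in the Lingo2 and TROY KO lines. There, 1.8%, 1.84%, 4.31% and 1.24% of all genes were higher in the Lingo1, Lingo2, Lingo3 and TROY KO lines. In every KO line 9 of the 11 folds over the scratched library were above 1. List medians were 0.31, 0.40, 0.30 and 0.24 log2 units in the Lingo1, Lingo2, Lingo3 and TROY KO lines. Over all genes tested the medians were 0.01 to 0.02. The list summed to 1289 to 1477 CPM in the KO and 1082 to 1101 CPM in the parental libraries. Among the genes below 1, Ddit3, which encodes CHOP and is named after its values were seen, had folds of 0.63, 0.66, 0.62 and 0.69 in the Lingo1, Lingo2, Lingo3 and TROY KO lines. None of 7 measured heat shock genes passed in any KO line, where 1.06% to 4.63% of all genes were higher and 1.18% to 2.56% lower. Their summed level was 2069 to 2205 CPM in the KO and 2020 to 2086 CPM in the parental libraries.

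Other features of the libraries moved along with AP-1, and their part in the AP-1 differences was not tested. The share of uniquely aligned reads outside counted features was 4.98% to 6.41% in the KO libraries, against 8.02% in the scratched and 7.80% in the unscratched parental library. Against the scratched library, 1.95%, 2.12%, 4.63% and 1.06% of all genes were higher in the Lingo1, Lingo2, Lingo3 and TROY KO lines. In the same order, 1.67%, 1.38%, 2.56% and 1.18% were lower. Of 6 measured alveolar type II markers, Sftpb was higher in all 4 KO lines, at 4.60-, 4.06-, 4.61- and 2.44-fold in Lingo1, Lingo2, Lingo3 and TROY, Sftpc in the Lingo1, Lingo2 and Lingo3 KO lines and Napsa in the Lingo3 KO line. No other measured type II marker passed. Folds over the scratched library were above 1 in 6, 5, 6 and 4 of the 6 in the Lingo1, Lingo2, Lingo3 and TROY KO lines. Over the unscratched library, 5, 3, 6 and 3 of the 6 were above 1 in the same order. The 10 listed, with the named genes among them, summed to 486 to 681 CPM in the KO and 395 to 441 CPM in the parental libraries. Of 4 measured epithelial markers, Epcam was higher in the Lingo2 and Lingo3 KO lines against the scratched but in none against the unscratched library, and the 5 listed summed to 2753 to 2932 CPM in the KO and 2060 to 2238 CPM in the parental libraries. Of 4 measured fibroblast markers, Col1a1 was higher in all 4 KO lines and Pdgfra in the Lingo3 KO line, while Col1a2, Col3a1 and Lum averaged below 1 CPM. Pdgfrb had 52, 37, 348 and 13 counts in the Lingo1, Lingo2, Lingo3 and TROY KO libraries, against 1 in the scratched and 3 in the unscratched parental library. It averaged 1 CPM only through the KO libraries, chiefly Lingo3 at 11.4 CPM, and in the TROY KO line it did not pass against the unscratched library. Col1a1 was 3.80-, 3.03-, 8.88- and 3.27-fold higher in the Lingo1, Lingo2, Lingo3 and TROY KO lines. The 7 listed summed to 2745 to 3462 CPM in the KO and 2578 to 2824 CPM in the parental libraries. Most of that sum was Dcn, the other measured marker, named after its values were seen, which passed in no KO line. In the scratched parental library Col1a1 stood at 44.8 CPM, Pdgfra at 1.71 CPM and Pdgfrb at 0.0329 CPM. Of the endothelial markers, Vwf was lower in all 4 KO lines and Tek higher in the Lingo1 and Lingo3 KO lines, while Pecam1, Cdh5 and Kdr averaged below 1 CPM. The 5 summed to 162 to 188 CPM in the KO and 95.4 to 103 CPM in the parental libraries. Vwf had 17, 11, 37 and 15 counts in the Lingo1, Lingo2, Lingo3 and TROY KO libraries. It had 169 in the scratched and 16 in the unscratched parental library, so the scratched library stood apart. Vwf averaged 1 CPM only through the scratched library, at 5.56 CPM, so the filter itself favoured a lower call. Against the unscratched library neither Vwf nor Tek passed in any KO line. The 7 macrophage and leukocyte markers summed to 1.76 to 3.25 CPM in the KO and 1.91 to 1.92 CPM in the parental libraries, none passed, and Adgre1 had 0 counts in every library. In bulk libraries, more cells with a message and more message per cell cannot be told apart. Genotype, line and culture cannot be told apart either.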

How the data were processed

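Messenger RNA libraries of 6 MLE12 cultures were analysed, 1 per group. The authors deposited raw read counts per Ensembl gene, ending with HTSeq summary lines. The submitters' processing notes name Trimmomatic 0.39, STAR, HTSeq and edgeR and build GRCm38, without order or settings. A second deposited table held RPKM values by the authors and log2 ratios of them, with no p-value; in 7630 well-counted genes, counts over RPKM followed a factor per gene and per library (SD of the residual 0.000971 log2 units). Jund stood in that table in 2 identical rows, which were used as 1.

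TMM factors over all 6 libraries, computed with edgeR 4.0.16 (R 4.3.3), scaled the counts. HTSeq summary lines stayed out of library sizes. Of 46078 identifiers, 45229 matched GENCODE M21 on GRCm38. Genes averaging 1 CPM or more entered the comparisons. A fold is the ratio of scaled counts, with 95% bounds derived from the Clopper-Pearson limits (exact) of the first library's share in both counts, and the size rule is a fold of at least 2 with the nearest bound beyond 1.5. Levels have 95% Poisson intervals. A floor of 3 counts per library stood at 0.0984 to 0.108 CPM. As the reads carry no molecular identifiers, they are not independent molecules, so intervals and floors cover counting error only. The script for the size rule was tested on simulated data. The authors' log2 ratios differed from those of the counts by -0.02 to 0.02 over the 40 member values.

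Named genes were the 8 members, the 4 targeted genes, from each list no more than 4 genes past the rule, by the bound nearest to 1, and the 3 genes nearest in pattern to each member. Some listed genes are counted with their list and not reported here by name. Members and lists were chosen with earlier results of these data known. Alternatives were total counts, DESeq2 1.42.0 size factors on the deposited counts, other filters and size rules, the RPKM values, and the unscratched library as control.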

Additional observations from a re-analysis of the deposited data

How the results depend on the processing

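No member changed direction under any alternative tried. In the Lingo3 KO line the count of members past the rule was 5 and became 3 when a fold of 3 with a bound beyond 2 was asked, because Junb and Fosl1 lie under 3-fold. The other counts of members past the rule, in all 5 comparisons, stayed within 1.5 times their value. Without the call of Junb, 3 members passed in the TROY KO line with total counts as the scaling and with the unscratched library as control. A mean of at least 5 CPM leaves Fosl1 untested. Of the 40 member folds, 27 stayed within their counting interval with total counts as the scaling and all 40 with DESeq2 size factors or the RPKM values. Against the unscratched library, 12 of 32 stayed within it, and the largest shift was 1.34 times, in Fosb. No paired analysis was possible because each group has 1 library, and for the same reason no replicate could be left out. Counting error limits Fosb, with 27 and 34 parental counts, and Fosl1, with 70 to 192 counts, the most.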
